A study of Arabidopsis thaliana with 12 samples.

Results

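The 100 array probes with the brightest signal in wild-type Arabidopsis thaliana were followed into the prors1 mutant. They were chosen from 3439 probes as the 100 with the highest mean deposited intensity over the 6 wild-type (WT) arrays, leaving out the probes of 7 loci of photosynthesis and chlorophyll synthesis, 5 of which would have stood above the last member. Total RNA was measured in 6 prors1 samples and 6 WT samples, both of the Columbia 0 ecotype, each numbered 1 to 6. The labels describe the mutant as without its prolyl tRNA synthetase and give no allele, tissue, age or growth condition. No probe annotated here names PRORS1, so its own transcript gives no check of the genotypes. Nothing in them says whether the samples are separate plants or repeat measurements, so the p-values below measure a spread among samples that may be technical.

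PRORS1 charges transfer RNA with proline in chloroplasts and mitochondria, so the enzyme serves protein synthesis in both organelles. Most proteins of these organelles are nevertheless encoded in the nucleus, and in green tissue the nuclear genes of photosynthesis are among the most strongly transcribed. A bright array probe is not by itself an abundant transcript, because intensity also depends on how well each probe binds and on how many related transcripts it captures. The members are therefore called the brightest WT probes, and ranks below compare the same probe between genotypes. In whole-tissue RNA, fewer cells of one type and less RNA per cell cannot be told apart.

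The WT means of the members run from 100, the upper end of the authors' intensity scale, down to 3.84 ± 0.788 for the last member (SD, n = 6). The first probe left outside had a WT mean of 3.80 ± 0.314, so the edge of the list lies within the spread between arrays. These WT values chose the members and are given as a description. On single WT arrays, 92 to 96 of the members were among that array's own 100 brightest, and 84 were so on every WT array. The coefficient of variation over 6 samples had a median of 13.9% in prors1 and 12% in WT. The summed intensity of an array ran from 3208 to 3403 in prors1 and from 2942 to 3167 in WT.

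Together the members held a smaller part of the signal in prors1. They took 42.8% ± 4.99 of the summed intensity in prors1 and 59.6% ± 1.68 in WT (SD, n = 6 each). The prors1 arrays ran from 37.2% through a median of 42.9% to 48.7%, against 57.7%, 59.3% and 61.8% on the WT arrays. No prors1 array reached the lowest WT array. The difference was present within each set of like-numbered samples. Samples 1-2 gave 42.9% in prors1 and 59.3% in WT, samples 3-4 gave 37.2% in prors1 and 57.9% in WT, and samples 5-6 gave 48.4% in prors1 and 61.6% in WT. Because the list was picked for high WT values, its lower share in prors1 is described and not tested. The 100 brightest probes by prors1 mean, 77 of them members, held 45.0% ± 5.36 in prors1 and 57.1% ± 1.52 in WT (SD, n = 6 each). These shares did not overlap either. Leaving out the 5 members whose probes touched the upper end of the scale gave 31.6% in prors1 and 43.9% in WT. The 3339 other probes had a summed intensity of 1902 ± 211 in prors1 and 1227 ± 88.1 in WT (SD, n = 6 each).

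The first 10 members held 18.7% ± 2.36 of the signal in prors1 and 26.8% ± 1.41 in WT, and members 11 to 25 held 8.45% ± 1.44 in prors1 and 13.7% ± 0.294 in WT (SD, n = 6 each). In prors1 the summed value of the first 10 members was 0.762 of that in WT, where 5 of them reached the end of the scale, so that this ratio is not exact. That of members 11 to 25 was 0.674 of the WT value. Members 26 to 50 held 7.75% ± 0.562 of the signal in prors1 and 9.61% ± 0.290 in WT, and members 51 to 100 held 7.96% ± 0.767 in prors1 and 9.45% ± 0.0653 in WT. Their summed values were 0.883 and 0.921 of the WT sums. The last band overlapped between the genotypes in summed value, with prors1 between 246 and 291 and WT between 276 and 300. In share of signal all 4 bands lay lower on every prors1 array than on every WT array. On each array, 50% of the summed intensity was reached with 82 to 203 probes on the prors1 arrays and with 39 to 49 on the WT arrays.

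Probe by probe, the deposited mean was lower in prors1 for 75 members and higher for 25. It was under 50% of the WT mean for 24 members and over 2 times the WT mean for 5. The direction was the same in all 3 sets of samples for 58 of the lower and 17 of the higher members. As deposited, the genotypes did not overlap for 46 members that were lower, where 3.63% of all probes did so, and for 15 that were higher, where 36.6% did. Over all probes tested, the median difference as deposited was 0.91 on the log2 scale, so most probes outside the list were brighter on prors1 arrays. The values as deposited gave 53 members called lower (5.5% of all probes) and 15 called higher (61.4% of all probes) in limma at an adjusted p of 0.05. With arrays divided by their sums, 64 members were called lower (7.44% of all probes) and 13 higher (56% of all probes).

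For the test, arrays were quantile-scaled, which gives all arrays one distribution, so that a scaled value follows the probe's rank on its array. In limma at an adjusted p of 0.05, 45 of the 100 members were lower in prors1 and 19 were higher. Among all 3304 probes tested, 23.2% were lower and 19.6% higher. The quantile-scaled groups did not overlap for 38 lower members (14.1% of all probes) and 15 higher ones (11.3% of all probes). Nothing is read from the larger number of lower members, because WT values chose the list. With the 100 brightest probes taken over all 12 samples, 37 were called lower and 29 higher. After quantile scaling, the calls lay mostly beyond the first 10 members, of which 1 was lower and 1 higher. Of members 11 to 25, 8 were lower and 2 higher, of members 26 to 50, 14 were lower and 5 higher, and of the last 50, 22 were lower and 11 higher. The counts by position depend on the scaling. Of the first 10 members, 7 had quantile-scaled differences below 0 and 3 above, with a median of -0.11. As deposited, 9 were below 0 and 1 above (median -0.49), where the median probe stood at 0.91. After cyclic loess, 4 were below 0 and 6 above (median 0.13). The median quantile-scaled difference was -0.29 for the members and -0.02 for all probes on the log2 scale. Dividing arrays by their medians left 85 members lower (30.4% of all probes) and none higher at an adjusted p of 0.05 (16.7% of all probes). With samples 1-2, 3-4 and 5-6 averaged, 30 members were lower (11.8% of all probes) and 13 higher (10.8%). Called lower under all 5 scalings were 43 members (5.25% of all probes), called higher under all 5 was none (12.4% of all probes), and 9 members were called opposite ways by different scalings (9.01% of all probes). The 45 lower members held 8.63% ± 0.476 of the signal in prors1 and 18.8% ± 1.05 in WT, and the 19 higher members held 10.9% ± 1.32 in prors1 and 7.88% ± 0.470 in WT (SD, n = 6 each), a description by the same values that made the calls.

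In rank, members far above the threshold had more room to stay in the list than those near it, so the counts by position are a description. All 10 of the first members were among the 20 brightest probes by prors1 mean, and the first 25 all stayed among the 100 brightest. Of members 51 to 100, 28 of 50 stayed there, and 77 of the whole list did. The 23 that left took prors1 ranks from 106 to 345, and 18 of them have no listed gene. The 23 probes that came in had WT ranks between 107 and 511. On single arrays, 74 to 79 members were among the 100 brightest in prors1 and 92 to 96 in WT. The median member stood at rank 60.3 ± 0.516 on the prors1 arrays and 53.3 ± 0.408 on the WT arrays (SD, n = 6 each). Across the 100 members, the means of both genotypes had a Spearman rho of 0.75, over probes that share arrays and are not independent.

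The 3 brightest members reached the upper end of the scale on all 6 WT arrays, so their WT levels are bounds and have no order among them. One is a probe listed for AT5G51520 and AT4G25250, both of the pectin methylesterase inhibitor family, whose proteins restrain the enzymes that modify cell-wall pectin. Its prors1 arrays gave a lowest value of 82.4, a median of 100 and a highest of 100, against 100 throughout in WT. It was at the upper end on 4 of 6 prors1 arrays, so no fold can be given for those. No test of the probe is given.

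Probes 2869 and 3499, with no listed gene, were the other two at the top. Probe 2869 had 60.0, 71.5 and 87.5 as lowest, median and highest in prors1 and 100 on every WT array. No prors1 array reached the end of the scale for it, and its mean was at least 1.36-fold lower in prors1. Its WT rank is shared with the other probes at the end of the scale, so no difference in rank is given. Probe 3499 had 73.5, 84.3 and 100 in prors1 and 100 on every WT array, and 2 of its prors1 arrays were at the end of the scale. No test is given for it either.

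Probes 265 and 812, also with no listed gene, reached the end of the scale on some WT arrays and on no prors1 array. Probe 265 had 54.5, 58.2 and 87.5 in prors1, against 79.6, 94.4 and 100 in WT. Probe 812 had 44.5, 49.2 and 63.5 in prors1, against 67.5, 77.3 and 100 in WT. The genotypes overlapped for probe 265 and did not for probe 812. Since 3 WT arrays of probe 265 and 2 of probe 812 were at the end of the scale, their WT levels are partly bounds. After quantile scaling neither passed (adjusted p = 0.658 and 0.138), and probe 812 was called lower with the replicate number as a block (adjusted p = 0.0483). With the values as deposited, probes 2869, 265 and 812 were lower in limma at adjusted p of 0.00462, 0.0129 and 0.00195. These p-values rest in part on bounds, and for probe 2869 the WT arrays, all at 100, show no spread.

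Most members carry no listed gene. The platform annotation names no gene for 74 of the 100, against 54.6% of all probes, 1 gene for 10 and several for 16. Of the first 25 members, 20 have none. The 74 held 29.8% ± 3.32 of the signal in prors1 and 45.3% ± 1.84 in WT (SD, n = 6 each), and no prors1 array reached a WT array. The 10 single-gene members together held 4.16% ± 0.885 in prors1 and 4.31% ± 0.189 in WT, which overlapped. After quantile scaling, 37 of the 74 were lower and 11 higher. Of the 10 single-gene members, 1 was lower and 5 were higher. Among all probes 23.2% were lower and 19.6% higher, and the difference between the kinds of member was not tested. The strongest decrease in the list, -1.64 on the log2 scale, belonged to a probe with no listed gene.

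Of the single-gene members, 5 were higher in prors1 after quantile scaling. They are AT4G17070, AT4G31530, AT4G32060, NdhS and AT2G27290. All 5 were also called higher with the values as deposited, as were 61.4% of all probes. Their deposited differences were 1.06, 0.98, 0.81, 0.39 and 0.40, where the median probe stood at 0.91. With arrays divided by their medians all 5 had differences below 0, at -0.082, -0.17, -0.34, -0.75 and -0.75, where the median probe stood at -0.10. In that scaling NdhS and AT2G27290 were called lower (adjusted p = 0.0168 and 0.00984).

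AT4G17070 had a lowest, median and highest intensity of 15.6, 21.5 and 25.7 in prors1, against 8.59, 9.74 and 11.4 in WT. Every prors1 array lay above every WT array. Its median rank was 21 in prors1 and 48 in WT. The quantile-scaled difference was 1.30 ± 0.11 on the log2 scale (SE), 2.47-fold higher at an adjusted p of 3.22e-06, and of 0.00631 with samples averaged. The ratio of means as deposited was 2.43 in samples 1-2, 1.64 in 3-4 and 2.30 in 5-6.

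AT4G31530 encodes a protein with a Rossmann fold that binds NAD(P). It had 12, 12.6 and 22.9 in prors1, against 6.52, 7.22 and 9.52 in WT. The groups did not overlap, and the highest prors1 values came from samples 5 and 6. It moved to a median rank of 29 in prors1, against 64.5 in WT. After scaling it was 2.30-fold higher (1.2 ± 0.16, SE, adjusted p = 7.25e-05, and 0.0172 with samples averaged).

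AT4G32060 encodes MICU, a calcium-binding regulator of calcium uptake into mitochondria. Its intensities were 7.15, 7.98 and 9.0 in prors1, against 3.40, 4.6 and 6.33 in WT. All prors1 arrays stood above all WT arrays, although samples 3-4 differed least, with a ratio of 1.31 against 1.84 in samples 1-2 and 2.23 in 5-6. The scaled difference was 0.93 ± 0.13 (SE, 1.90-fold higher, adjusted p = 0.000106, and 0.0216 with samples averaged).

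NdhS (AT4G23890) is a subunit of the chloroplast NADH dehydrogenase-like complex, which feeds electrons from ferredoxin back into the thylakoid chain. It had 9.34, 10.7 and 13.4 in prors1, against 7.56, 8.07 and 10.7 in WT. The deposited values overlapped, while the scaled ones did not. Its scaled difference was 0.70 ± 0.12 (SE, 1.62-fold higher, adjusted p = 0.000464, and 0.0374 with samples averaged). Within samples 3-4 the deposited ratio was 0.993, against 1.32 in samples 1-2 and 1.73 in 5-6, and division by array sums ended the call (adjusted p = 0.107).

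AT2G27290 was bright in both genotypes, with 25.7, 28.3 and 31.9 in prors1 and 18.8, 22.3 and 23.6 in WT. Its groups did not overlap. It took median rank 15 in prors1 and 23 in WT, with a scaled difference of 0.62 ± 0.12 (SE, 1.54-fold higher, adjusted p = 0.00101), and missed the threshold with samples averaged (adjusted p = 0.0514).

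The single-gene member that fell was AT2G40980. It had 3.42, 3.66 and 4.65 in prors1, against 5.10, 7.09 and 7.36 in WT. The groups did not overlap. It was 1.70-fold lower after scaling (-0.76 ± 0.14, SE, adjusted p = 0.000684) and was called lower under all 5 scalings and with samples averaged (adjusted p = 0.0445). Its median rank was 125.5 in prors1 and 66 in WT.

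AT3G09850, a G-patch domain protein and the brightest single-gene member, did not pass and spread widely in the mutant. Its prors1 arrays gave 30.3, 34.5, 15.5, 16.9, 46.4 and 51 in samples 1 to 6, against 55.7, 58.7, 44.3, 47.3, 50.1 and 53.0 in WT. The like-numbered samples fell into 3 levels in prors1, with ratios to WT of 0.566 in samples 1-2, 0.354 in 3-4 and 0.944 in 5-6. This order of the sets was not particular to the gene. The summed share of all members in prors1 had the same order, at 42.9%, 37.2% and 48.4%. The scaled difference was -0.41 ± 0.25 (SE, adjusted p = 0.206), and as deposited it was called lower (adjusted p = 0.0251).

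The remaining 3 single-gene members also missed the threshold after scaling. CCL (AT3G26740), a gene whose transcript stability follows the circadian clock, had 7.5, 7.84 and 8.92 in prors1 and 9.17, 9.84 and 11 in WT. These deposited values did not overlap, but its rank differed little, at a median of 49 in prors1 and 45 in WT (-0.12 ± 0.08, SE, adjusted p = 0.271). AT1G62250 had 4.22, 4.41 and 5.37 in prors1 and 4.52, 5.15 and 6.57 in WT, which overlapped. Its scaled difference was -0.25 ± 0.11 (SE, adjusted p = 0.091), and the probe was called lower with the replicate number as a block (adjusted p = 0.0455). CUTA (AT2G33740), a chloroplast protein related to a bacterial copper-tolerance factor, had 3.33, 4.48 and 4.81 in prors1 and 3.62, 4.6 and 5.28 in WT, with a scaled difference of -0.14 ± 0.14 (SE, adjusted p = 0.437). CCL, AT1G62250 and CUTA lay outside the naming rule and were added after their values were seen, so that all 10 are given.

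The 16 members listed for several genes are described by family, since their signal cannot be divided among the genes. After scaling, 7 were lower, 3 higher and 6 neither, where 23.2% of all probes were lower and 19.6% higher. All 16 are given here. Those with CSLC12, AT5G51520, AT4G24026 and AT1G70160 stood within the naming rule by their brightness or change, and the rest were added after their values were seen.

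Both members for rhodanese-like proteins, a family of sulfur-transferase domain proteins, fell. The probe for AT3G08920 and AT2G42220 had 1.37, 2.33 and 2.71 in prors1, against 3.22, 4.65 and 5.62 in WT, and was 2.25-fold lower after scaling (-1.17 ± 0.18, SE, adjusted p = 0.000249). The probe for TROL and AT3G25480 had 2.41, 2.96 and 3.09 in prors1, against 4.11, 4.73 and 5.54 in WT. Neither probe overlapped between the genotypes. TROL anchors ferredoxin-NADP reductase to the thylakoid. The second probe was 1.71-fold lower (-0.78 ± 0.10, SE, adjusted p = 6.05e-05), and both calls held under all 5 scalings and with samples averaged (adjusted p = 0.0229 and 0.0201).

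A probe for AT4G00165 and AT2G45180, of the protease inhibitor, seed storage and lipid transfer protein family, had 5.54, 6.98 and 8.25 in prors1, against 12.3, 13.8 and 15 in WT. Its mean was 50.3% of WT as deposited and 1.66-fold lower after scaling (adjusted p = 0.0007, and 0.0335 with samples averaged), with no overlap. The probe for YUC6 and YUC2, flavin monooxygenases of auxin synthesis, had 4.99, 5.36 and 6.40 in prors1, against 8.48, 9.15 and 9.66 in WT. It was 1.5-fold lower (adjusted p = 0.00134) with no overlap, and missed the threshold with samples averaged (adjusted p = 0.0607). The probe for AT5G35660 and AT2G26500 had 5.51, 5.70 and 6.97 in prors1, against 11, 14.0 and 18.9 in WT. AT2G26500 encodes a small subunit of the cytochrome b6f complex, which passes electrons between the photosystems. The groups of the probe did not overlap, and it was 2.07-fold lower after scaling (-1.05 ± 0.15, SE, adjusted p = 0.000108), with adjusted p = 0.0197 after samples were averaged. The probe for AT1G71970 and AT1G22680 had 4.48, 5.44 and 7.01 in prors1, against 6.12, 7.90 and 11.2 in WT, which overlapped. Its scaled difference was -0.46 ± 0.17 (SE, adjusted p = 0.0428). It missed the threshold without any one of samples 1, 2, 3, 5 or 6 (adjusted p = 0.0516 to 0.102) and with samples averaged (adjusted p = 0.197) or as a random block (adjusted p = 0.125). A LURP-one-related pair, AT5G20640 and AT2G05910, stood 1.26-fold lower in prors1 (adjusted p = 0.0196). This did not hold with samples averaged (adjusted p = 0.201) or as a random block (adjusted p = 0.0554), after cyclic loess (adjusted p = 0.239), as deposited (adjusted p = 0.136) or without sample 3 or 4 of each genotype (adjusted p = 0.0712 and 0.0575).

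The largest increase in the whole list came from the probe for AT1G70160, AT5G54870 and AT4G27020, for which no function is given here. It had 25, 27.0 and 34.4 in prors1, against 9.0, 11.6 and 13.2 in WT. All prors1 arrays lay above all WT arrays. The probe stood at median rank 12.5 in prors1 and 39.5 in WT. After scaling it was 3.13-fold higher (1.65 ± 0.16, SE, adjusted p = 7.0e-06, and 0.00731 with samples averaged). Division by array medians left a difference of 0.20 that missed the threshold (adjusted p = 0.379).

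The probe for CSLC12, AT4G07950 and AT4G07940, loci with neighbouring numbers, was higher after scaling (0.54 ± 0.15, SE, adjusted p = 0.0104). CSLC12 belongs to the family that makes the glucan backbone of xyloglucan. The probe had 69.8, 75 and 96.3 in prors1, against 50.5, 74.0 and 81.0 in WT, which overlapped. The call was lost as deposited (adjusted p = 0.195), with samples averaged (adjusted p = 0.125) and without samples 1-2 (adjusted p = 0.0913), and division by medians gave -0.90 with a call lower (adjusted p = 0.00079). PHOS32 and PHOS34, phosphoproteins of the universal stress protein family, shared a probe that was 1.45-fold higher (adjusted p = 0.0418), a call lost as deposited (adjusted p = 0.0997), by array sums (adjusted p = 0.284), with samples averaged (adjusted p = 0.217) or as a random block (adjusted p = 0.0703), and without any one of samples 1, 2, 5 or 6 (adjusted p up to 0.118).

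Among those that did not pass, the GET3 family probe (AT1G01910, AT5G60730 and AT3G10350), for ATPases that deliver tail-anchored proteins to membranes, had 3.84, 4.95 and 10.2 in prors1, against 4.19, 4.92 and 5.24 in WT. In samples 5-6 its prors1 mean was 2.07 times WT, against 0.96 in 1-2 and 0.879 in 3-4. The probe for AT4G31510 and AT2G24550 differed by 0.15 ± 0.11 after scaling (SE, adjusted p = 0.279). A RING finger pair, AT5G55970 and AT4G26580, differed by 0.09 ± 0.08 after scaling (SE, adjusted p = 0.405). The probe for AT4G24026 and AT4G10810 differed by -0.08 ± 0.13 (SE, adjusted p = 0.662), but its sets went opposite ways. The deposited ratio of prors1 to WT was 0.735 in samples 1-2, 0.482 in 3-4 and 1.29 in 5-6.

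The acyl-carrier-protein desaturase probe (AT5G16240 and AT3G02630), of the family that makes unsaturated fatty acids in plastids, varied with the sample number. It had 4.09 to 5.48 in prors1 samples 1 to 4 and 4.96 to 7.0 in WT samples 1 to 4. In samples 5 and 6 it had 0 and 0.0492 in prors1, and 0 and 0.0312 in WT. It was the 1 member at 0 on any array, and the 1 member under 50% of its level in the other samples in samples 5-6 of both genotypes. In each of samples 1 to 4 the prors1 value was below the WT value of the same number. The scaled difference was -0.30 ± 1.78 (SE, adjusted p = 0.915) without the replicate number as a block and -0.30 ± 0.11 (SE, adjusted p = 0.0527) with it.

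Gene lists were drawn up for 8 groups of loci and 15 groups found by words in gene names. They held usual sources of abundant transcripts in green tissue, among them Rubisco small subunits, photosystems, the Calvin cycle, photorespiration, ribosomal proteins and elongation factors. Other lists, such as transcription factors and kinases, are not such sources. Only 9 of the 23 lists had a tested probe, and none had one among the 100 members. The rule had removed the 7 loci named above by function, which include loci of the antenna, photosystem I, photosystem II and Calvin cycle lists. Probes of these loci could not be members, although 5 of the 7 stood above the last member, so for these lists the absence was partly fixed by the rule. Little can be read from it for the other lists either, since 74 members have no listed gene. A several-gene probe counted only where all its genes belonged to a list. NdhS and the probes with TROL and AT2G26500, described above, were members outside these lists. In those 9, probes called in limma after quantile scaling were 2 of 2 for antenna proteins, 1 of 1 for photosystem I, 1 of 3 for photosystem II, 2 of 2 for the Calvin cycle, 3 of 4 for photosystem words, 4 of 5 for histones, 1 of 1 for transcription factors and 1 of 2 for kinases, all lower in prors1. For ubiquitin, 2 of 4 were higher. Among all probes 23.2% were lower and 19.6% higher. The lists by locus and by words can hold the same probes, so their counts are not independent. The 3 photosystem II probes had a median difference of 0.27 on the log2 scale. None of the 12 marker loci for root, seed, flower and senescence was on a single-gene probe, so the tissue was not checked.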

How the data were processed

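Total RNA of 6 prors1 and 6 WT samples was measured on single-channel arrays. The deposited table holds linear intensity values from 0 to 100. The sources used here do not say how the authors labelled, scanned and scaled. The number of arrays limits the precision.

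Probes were named from the platform annotation (1 gene for 692, several for 870, none for 1877), updated to the TAIR10.1 gene table through gene identifiers, which matched 690 of the 692. No coordinates are given because the probes' build is not named. Words were sought in gene symbols and synonyms, since the table has no descriptions.

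Each probe was tested. Arrays were quantile-scaled, intensities were floored at 0.0467, which is percentile 5 of those above 0 and touched 13.7% of values, and 135 probes at the floor throughout were left out. On log2 values, limma 3.58.1 in R 4.3.3 tested genotype (lmFit, eBayes, two-sided, Benjamini-Hochberg). The procedure was tested on simulated data. Shares and ranks used deposited values, with ties averaged.

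Samples 1-2, 3-4 and 5-6 of a genotype resembled each other (consensus correlation 0.552). Deviations of like-numbered samples correlated across genotypes at 0.346 to 0.489 over 2386 probes that stayed above the floor. Unlike numbers were not compared across genotypes, so the check cannot tell pairing by number from likeness of the sets. The main test used genotype alone.

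Named members were to be single-gene probes among the first 20, at the end of the scale, or among the 10 strongest calls each way, with families and at most 4 probe numbers beside them. The members, lists and tests were chosen with earlier results of these data known. Alternatives were other scalings, floors, filters, treatments of the samples, thresholds and choices of members.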

Additional observations from a re-analysis of the deposited data

Results flagged for a closer look

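In 2 of 59 groups of 6 samples checked, 1 sample stood far from the other 5, where chance gives about 1 in 20. The probe for CSLC12, AT4G07950 and AT4G07940 was lowest in prors1 replicate 5, at 6.25 on the quantile-scaled log2 scale with the next sample at 6.47. Its deposited value there was 70.4, against 69.8 in replicate 6, so the sample did not stand apart as deposited. Probe 2869 was lowest in prors1 replicate 3, at 6.25 with the next sample at 6.42, and its deposited value there was 60.0, against 63.6 in replicate 4. Both flagged values are the scaled value of rank 5 on an array. Groups at the end of the scale on all 6 arrays were not checked.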

How the results depend on the processing

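Over all probes, 766 were lower and 649 higher in prors1 after quantile scaling, against 182 lower and 2032 higher in deposited values, 246 and 1850 after division by array sums, and 391 and 358 with samples averaged. Leaving out replicate numbers or sets of samples gave 487 to 830 lower and 428 to 743 higher. Of the members, 45 were lower and 19 higher, and 85 and 0 with arrays divided by their medians. With the replicate block, 48 members were lower and 20 higher (26.5% and 23.9% of all probes), and it changed no call of a named probe other than those of probe 812 and AT1G62250. Choosing the 100 by the mean of all 12 samples moved the share called higher to 29% and the median prors1 rank to 53.1. That rank was 60.3, and it was 30.8 for the 50 brightest, 111 for the 200 brightest, 61.2 by medians, 64.2 without the probes at the end of the scale, 58.7 with the 7 loci kept in, and 59.4 to 60.8 without one WT replicate. The members' share of signal was 34.9% in prors1 and 50.1% in WT for the 50 brightest, 52.1% in prors1 and 68.5% in WT for the 200 brightest, 31.6% in prors1 and 43.9% in WT without the probes at the end of the scale, and 61.8% in WT with the 7 loci kept in. Differences of the pectin methylesterase inhibitor probe and of probe 3499 rest on intensities at the end of the scale and give no direction. The same holds for the scaled differences of probes 2869 and 265. As deposited, these 2 probes reached the end of the scale in WT alone, and their prors1 means were lower. Signs turned with arrays divided by their medians for the pectin methylesterase inhibitor probe (-1.23), the probe for CSLC12, AT4G07950 and AT4G07940 (-0.90), AT2G27290 (-0.75), AT4G17070 (-0.082), NdhS (-0.75) and AT4G31530 (-0.17). They also turned for AT4G31510 and AT2G24550 (-1.20), PHOS32 and PHOS34 (-0.74), the GET3 family probe (-0.88), AT4G32060 (-0.34) and the RING pair (-1.02). The pectin methylesterase inhibitor probe was also at -0.086 as deposited and -0.22 by sums, AT4G31510 and AT2G24550 at -0.049 and -0.18, and the RING pair at -0.0020 by sums. After cyclic loess the sign turned for AT4G24026 and AT4G10810 (0.10), probe 2869 (0.20), probe 3499 (0.44) and probe 265 (0.14). Leaving out samples turned it for AT4G24026 and AT4G10810 (-0.29 to 0.054), AT4G31510 and AT2G24550 (-0.026 to 0.27), GET3 (-0.058 to 0.48) and probe 3499 (-0.15 to 0.025). Dividing by medians moved the median of all probes to -0.10, by sums to 0.78, and values as deposited to 0.91, against -0.02 after quantile scaling. The cause of these differences was not tested. Intensities at the end of the scale are bounds, and probes near 0 carry little signal over background.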

Other observations

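Probes whose number in the deposited table is next to that of a member had more zeros than other probes, a comparison chosen after the data were seen. Over 127 such probes, 14.6% ± 3.94 were at 0 in prors1 and 31.9% ± 2.27 in WT (SD, n = 6 each). Over the 3205 other non-members the values were 7.11% ± 1.19 in prors1 and 10.7% ± 0.373 in WT. Their median intensity was 0.271 ± 0.0834 in prors1 and 0.0669 ± 0.00661 in WT, against 0.339 ± 0.0831 and 0.148 ± 0.0148 for the others. The sources used here do not say what a probe number stands for on the array.

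Members were also unevenly placed in that numbering. Of 593 probes whose number leaves a remainder of 1 after division by 6, 34 were members (5.73%), against 2 of 261 (0.766%) with a remainder of 0 and between 1.53% and 3.39% for the other remainders.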
